A study of Rattus norvegicus with 63 samples.

Results

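The genes described here are 32 genes of oligodendrocytes and of the myelin they make, followed across the prefrontal cortex (PFC) and striatum of rats that had self-administered amphetamine, methamphetamine, methylphenidate or saline. They were found as the array probe sets whose single annotated symbol is on the list, with the probe set of highest mean log2 signal standing for each gene. Of the 32, 30 had such a probe set among the 14218 genes of the arrays. Qki, which encodes an RNA-binding protein of oligodendrocytes, had none, and Tf, which encodes the iron carrier transferrin, only 2 probe sets shared with other symbols. After the 40% of genes with the lowest mean signal in a region were left out, 8531 genes were tested per region, 27 of them members in the PFC and 29 in the striatum. Olig2, the lineage-defining bHLH factor, was below that limit in both regions (mean log2 signal 4.28 and 4.23). Sox10 and Nkx6-2, a SOX factor and a homeodomain factor of the lineage, were below it in the PFC alone.

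In all, 63 Affymetrix arrays were measured, 31 of the PFC and 32 of the striatum, the latter dissected as rostral caudate putamen with nucleus accumbens. All were from male Wistar rats, 4 weeks old on arrival, that received injections into the peritoneum 2 times daily for 7 days from the age of 6 weeks. They then underwent conditioning for place preference and intravenous self-administration, and tissue was collected on the day that followed the final test, from the rats with the most robust self-administration. Naive-cohort rats received saline in the 7 days and were conditioned with saline, with amphetamine or methamphetamine at 1.25 or 5 mg/kg, or with methylphenidate at 5 mg/kg. Pretreated-cohort rats received 5 mg/kg of the stimulant with which they were later conditioned at 5 mg/kg, and the saline group of that cohort received saline throughout. Self-administration was at 0.1 mg/kg per infusion for amphetamine and methamphetamine, 0.25 mg in 0.1 ml for methylphenidate and 0.1 ml of saline for controls. The 20 groups held 3 arrays each, except for the naive saline groups with 5 and methamphetamine 1.25 mg/kg in the PFC with 2. The labels speak of pools of animals but also of about as many rats as arrays, so p-values here measure the spread between arrays.

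Oligodendrocytes wrap axons in many layers of membrane. Myelin basic protein and other small proteins compact the layers, galactolipids make up much of the membrane, and adhesion proteins hold it to the axon and cluster ion channels at the nodes of Ranvier. Transcription factors of the SOX, bHLH and MYRF families drive the myelin genes in the maturing cell, and adult oligodendrocytes go on transcribing them at a high rate. Both regions hold oligodendrocytes in grey matter, and the caudate putamen is also crossed by myelinated fibre bundles. In bulk tissue, fewer oligodendrocytes and less of a transcript per cell cannot be told apart.

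Promoters were read from the RefSeq table of build GRCr8, which gives 250 bases before and 50 after each start of transcription. It held 28 promoters of 25 of the 32 genes. Car2, Mog, Ermn, Olig1, Sox10, Bcas1 and Enpp2 had no entry. Letters of 3 factor families were searched on both strands: ACAAAG and ACAATG for SOX factors, CTGGCAC and CTGGTAC for MYRF, and CAGCTG and CAGATG for bHLH factors such as OLIG2. Either MYRF word was in 9 of the 28 promoters (32.1%) and in 6.78% of all 33469 promoters. Either SOX word was in 10 of the 28 (35.7%) and in 29.1% of all, and either bHLH word in 9 (32.1%) and in 29.1% of all. Some promoters of the list come from 1 gene, and a match describes letters only. The promoters of Opalin, Adamts4 and Fa2h are shown because these genes recur in the comparisons below and differ in their number of matches: Opalin and Adamts4 held 5 matches each and Fa2h 0. Opalin lies on the minus strand at chr1:249858141-249858440, Adamts4 on the plus strand at chr13:86202761-86203060 and Fa2h on the minus strand at chr19:56273431-56273730. Capitals mark the matches, which stand as the reverse complement where the match is on the other strand.
Opalin: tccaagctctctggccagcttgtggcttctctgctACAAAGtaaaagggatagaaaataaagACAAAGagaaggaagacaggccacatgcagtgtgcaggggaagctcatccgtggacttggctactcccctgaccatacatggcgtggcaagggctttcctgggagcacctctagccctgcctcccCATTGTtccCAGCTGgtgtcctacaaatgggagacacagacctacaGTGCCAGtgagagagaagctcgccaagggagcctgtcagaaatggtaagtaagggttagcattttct
Adamts4: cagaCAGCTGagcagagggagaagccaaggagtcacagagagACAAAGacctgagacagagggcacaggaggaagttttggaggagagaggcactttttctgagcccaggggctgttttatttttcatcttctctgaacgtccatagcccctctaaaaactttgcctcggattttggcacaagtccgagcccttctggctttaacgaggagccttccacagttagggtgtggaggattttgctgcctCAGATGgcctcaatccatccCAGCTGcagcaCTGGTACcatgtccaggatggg
Fa2h: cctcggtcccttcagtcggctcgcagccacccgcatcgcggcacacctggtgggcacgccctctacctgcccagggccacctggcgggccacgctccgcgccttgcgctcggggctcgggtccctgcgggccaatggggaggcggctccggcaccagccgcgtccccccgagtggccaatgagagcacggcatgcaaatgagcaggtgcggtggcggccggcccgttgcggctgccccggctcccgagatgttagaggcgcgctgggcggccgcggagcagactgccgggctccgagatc
In Opalin, the SOX word ACAAAG occurred 2 times and the MYRF word CTGGCAC began 17 bases before the start. In Adamts4, the bHLH word CAGCTG occurred 2 times and the MYRF word CTGGTAC lay 28 bases after the start.

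All values below are log2 of the deposited signal, in which 1 unit is a doubling, and differences are between means of these values. Every array had been scaled to the same trimmed mean, so a change of total RNA cannot be seen, and signals of different probe sets are not compared. The naive cohort consists of 2 sets of arrays that the bacterial control transcript BioB, added to each sample, keeps apart. The first set holds saline Samples 1 to 3, amphetamine 1.25 mg/kg and methamphetamine 1.25 and 5 mg/kg, with BioB at 9.35 to 10.63. The second holds saline Samples 4 and 5, amphetamine 5 mg/kg and methylphenidate 5 mg/kg, with BioB at 5.96 to 6.68. Each stimulant group was therefore set against the saline of its own set, and pretreated groups against the 3 saline arrays of their cohort. One striatal array, Sample 1 of the naive group on 1.25 mg/kg methamphetamine, went against its label: the mean of striatal neuron markers was 8.41 there and 11.76 to 12.61 on the other 31 striatal arrays, and its cortical neuron markers lay at 10.97. On PFC arrays these means were 7.57 to 9.43 for striatal and 10.87 to 11.31 for cortical markers. The mean of ribosomal protein genes was above 14 on 6 arrays, among them PFC methamphetamine 1.25 mg/kg Sample 1 (14.32) and striatal methamphetamine 5 mg/kg Sample 3 (14.41).

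**Figure D1:**
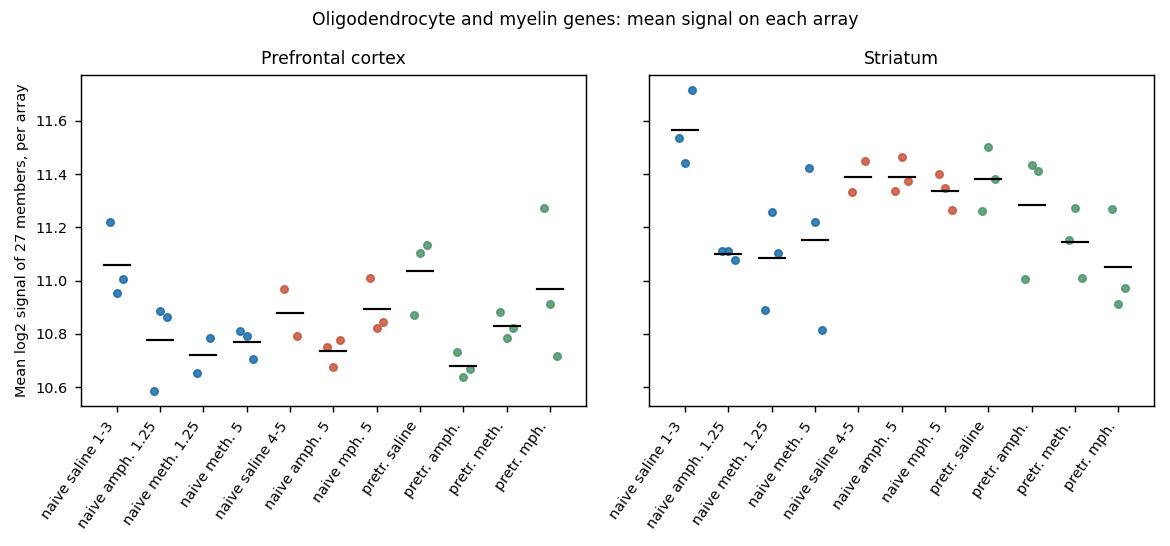
Mean log2 signal of the 27 genes tested in both regions on each array (points), with group means (bars), for the PFC (left) and the striatum (right). Blue is the first naive set, red the second naive set and green the pretreated cohort (pretr.), with amph., meth. and mph. for amphetamine, methamphetamine and methylphenidate and numbers for mg/kg. In the first naive set the saline arrays lay at 10.95 to 11.22 in the PFC and 11.44 to 11.72 in the striatum, above all 8 cortical and all 9 striatal stimulant arrays.

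In the striatum of the first naive set, myelin genes were lower in rats that took amphetamine or methamphetamine than in saline rats, by a median of 0.47 on the log2 scale. Of the 29 genes tested, 26 lay below saline and 8 passed the test, all of them lower, against 0.926% of all genes tested that passed as lower. The median of all genes was 0.01. Enzymes of myelin lipid synthesis took the largest share: 4 of 5 passed, with a median of -0.83 for the 5. Passing genes also included 2 of 9 myelin proteins, 1 of 4 regulators tested and 1 of 5 receptors, secreted proteins and enzymes, but 0 of 6 genes of axon contact. For every one of the 8, all 9 stimulant arrays lay below all 3 saline arrays. The test on the same arrays had picked these 8, so this adds no separate support. How many of all genes were apart in this way was not counted.

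Ugt8 encodes the synthase of galactosylceramide, the main myelin galactolipid. It lay at 9.87, 9.99 and 10.62 in saline and at 8.10 to 9.62 (median 9.05) in the 9 stimulant arrays, a difference of -1.20 ± 0.26 (SE; limma adjusted p = 0.0163), so the signal fell by 56.5%. Gal3st1, whose enzyme adds the sulfate that turns this lipid into sulfatide, lay at 8.35, 8.09 and 8.66 in saline and at 6.96 to 8.09 (median 7.27) with stimulants, a difference of -0.95 ± 0.21 (adjusted p = 0.0205). Fa2h hydroxylates the fatty acids of both lipids. It lay at 10.08, 10.01 and 10.27 in saline and at 8.36 to 9.65 (median 9.39) with stimulants, a difference of -0.83 ± 0.17 (adjusted p = 0.0123). Elovl1, which lengthens very long fatty acids, lay at 10.15, 10.34 and 10.50 in saline and at 9.51 to 10.03 (median 9.75) with stimulants (-0.58 ± 0.11; adjusted p = 0.00984). Thus the 4 enzymes that build galactolipid and its fatty acids were each lower past the threshold. For all but Elovl1, the stimulant arrays spanned a wider range than the difference itself, and for Gal3st1 the groups nearly met, at 8.09. Aspa, which frees acetate for lipid synthesis from N-acetylaspartate, did not pass (-0.36; adjusted p = 0.33).

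Sirt2, a deacetylase that is abundant in oligodendrocytes and myelin, gave the smallest p of all members. It lay at 12.36, 12.16 and 12.38 in saline and at 11.44 to 11.91 (median 11.59) with stimulants, a difference of -0.65 ± 0.09 (adjusted p = 0.00066). Opalin, a membrane glycoprotein of mature oligodendrocytes, lay at 11.42, 11.39 and 11.43 in saline and at 10.30 to 11.22 (median 10.66) with stimulants (-0.75 ± 0.17; adjusted p = 0.0214). The saline arrays were close together for this gene, and the stimulant arrays spread more widely. Pllp, the raft protein plasmolipin, lay at 10.81, 10.55 and 10.86 in saline and at 9.73 to 10.40 (median 10.07) with stimulants (-0.66 ± 0.15; adjusted p = 0.0214). Adamts4, a secreted metalloprotease made by mature oligodendrocytes, lay at 9.90, 9.72 and 10.24 in saline and at 8.95 to 9.66 (median 9.26) with stimulants (-0.69 ± 0.17; adjusted p = 0.0366).

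Other striatal members did not pass. Nkx6-2 (-0.88; adjusted p = 0.068), Mog of the outermost myelin layer (-0.52; 0.064), the receptor gene Gpr37 (-0.52; 0.086), the tetraspanin gene Tspan2 (-0.52; 0.087), Mag of the inner, axon-facing layer (-0.66; 0.093) and Car2, carbonic anhydrase (-0.43; 0.095), had adjusted p-values between 0.05 and 0.1. Neurofascin, Nfasc, which anchors the paranode, stood at -0.56 and Enpp2, the lysophospholipase autotaxin, at -0.47. Cnp, a nucleotide phosphodiesterase, was at -0.44, the cytoskeletal ermin gene Ermn at -0.41, Sox10 at -0.36, Olig1 at -0.34, the myelin proteolipid gene Mal at -0.30, the tight junction gene Cldn11 at -0.23 and Bcas1, a marker of oligodendrocytes at the onset of myelination, at -0.20. Nearest to or above 0 were Mobp (-0.16), Omg (-0.05), the nodal link protein gene Hapln2 (0.03), Mbp (0.10) and Cntn2, a contactin of the juxtaparanode (0.15).

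For the structural genes Mbp and Mobp the answer depended on the probe set. In a fit of single probe sets, the brightest of Mbp, whose protein compacts the membrane, differed by 0.10 ± 0.14 (SE), while its other 2 stood at -0.39 ± 0.18 and -0.90 ± 0.18. Mobp stood at -0.16 on its brightest probe set and at -0.44 and -0.52 on the other 2. The second probe sets of Cnp (-0.77) and Tspan2 (-0.73) were lower than those that stood for the genes, and the 5 of Nfasc ranged from -0.67 to 0.32. These other probe sets were not tested for calls.

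This striatal count rested on few saline arrays: leaving out saline Sample 1 left 3 members, Sample 2 left 4 and Sample 3 left only Sirt2. Without the array of cortical profile, 8 members passed and the median was -0.41. Markers of other cells moved in the same comparison. Cortical neuron markers lay at 8.07 to 8.15 in saline and at 8.05 to 9.26 in the 8 stimulant arrays of striatal profile. In the fit of all arrays, with that of cortical profile, their median difference was 1.01 over the 4 tested. Of these, 1 passed as higher. All 9 striatal neuron markers tested lay below saline in the fit of all arrays (median -0.44), with 0 passing. That fit includes the array of cortical profile. On the other 8 stimulant arrays the mean of striatal neuron markers was 12.18 to 12.61, against 12.21 to 12.51 in saline. Astrocyte markers stood at a median of -0.16 over 8, with 1 passing as lower. The log2 ratio of 3' to 5' signal of actin, a sign of RNA integrity, was 2.71 to 2.77 in saline and 2.93 to 3.83 with stimulants, with no overlap. The part of dissection and of RNA quality in the differences was not tested.

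**Figure D2:**
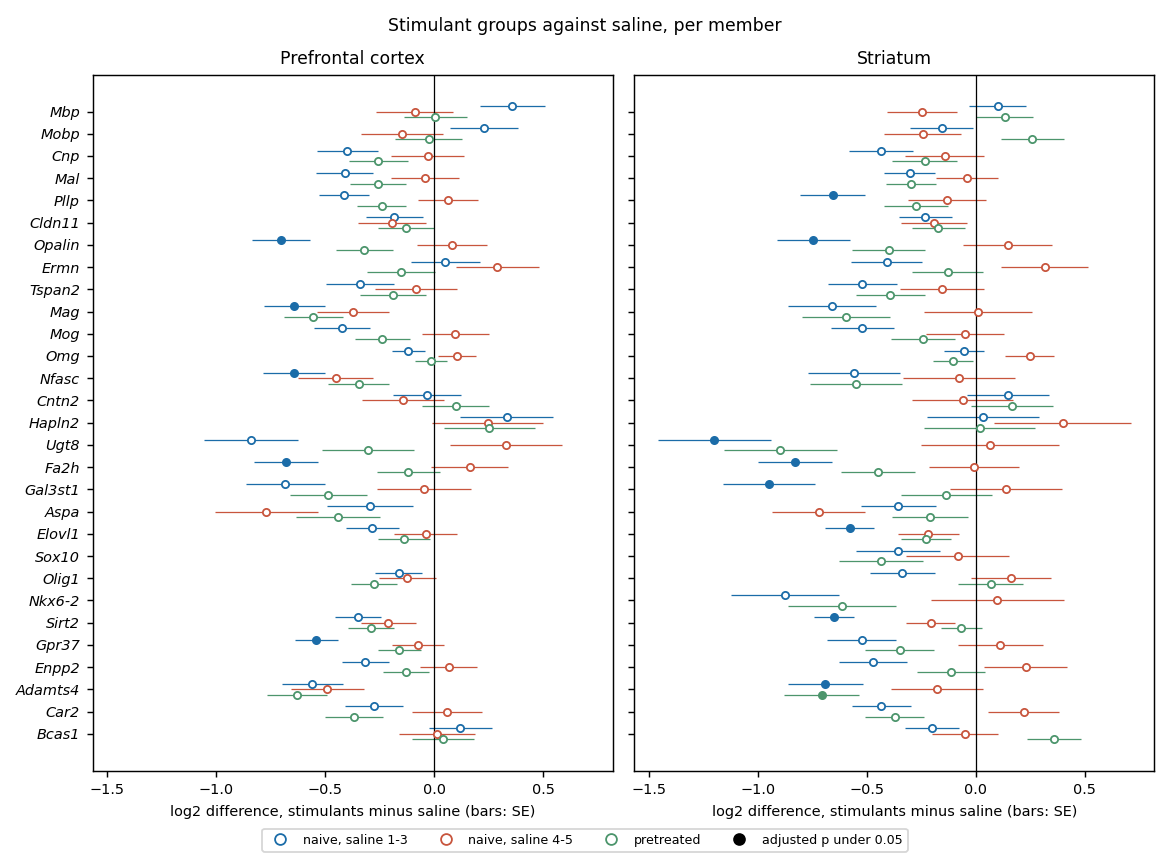
Difference in log2 signal between stimulant groups and saline for each of the 27 genes tested in the PFC (left) and the 29 tested in the striatum (right), with bars for the SE. Blue is the first naive set, red the second and green the pretreated cohort, and filled points passed at an adjusted p under 0.05. Most blue points lie to the left of 0 in both regions, red points lie on both sides, and 14 points are filled: 5 blue in the PFC, 8 blue and 1 green in the striatum.

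In the PFC of the first naive set the members also lay mostly below saline, with a median of -0.34 over 27 genes, 22 of them below saline. Here 5 passed as lower, against 0.223% of all genes tested. Genes that hold myelin to the axon were 2 of the 5, Mag and Nfasc. Myelin proteins gave 1 (Opalin), lipid enzymes 1 (Fa2h) and receptors 1 (Gpr37). Opalin and Fa2h were thus below saline past the threshold in both regions.

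Gpr37 encodes an orphan receptor that restrains oligodendrocyte differentiation. It lay at 11.70, 11.66 and 11.69 in saline and at 10.86 to 11.32 (median 11.18) in the 8 stimulant arrays, so it fell by 31.3% (-0.54 ± 0.10; adjusted p = 0.0170). Opalin lay at 11.05, 10.72 and 10.85 in saline and at 9.87 to 10.49 (median 10.19) with stimulants (-0.70 ± 0.13; adjusted p = 0.0175). Mag, the sialic-acid-binding adhesion protein of the innermost layer, lay at 10.92, 10.71 and 10.96 in saline and at 9.71 to 10.60 (median 10.23) with stimulants (-0.64 ± 0.14; adjusted p = 0.0313). For these 3 genes and for Nfasc, all 8 stimulant arrays lay below all 3 saline arrays. They too had been picked by the test on the same arrays, and the share of all genes apart in this way was not counted. Nfasc lay at 10.31, 10.03 and 10.30 in saline and at 8.98 to 9.97 (median 9.80) with stimulants (-0.64 ± 0.14; adjusted p = 0.0382). This call depended on the probe set: the other 4 probe sets of Nfasc stood at -0.53 to -0.13, and with the mean of all 5 Nfasc differed by -0.33 (adjusted p = 0.404). Fa2h lay at 9.74, 9.10 and 9.54 in saline and at 8.38 to 9.25 (median 8.78) with stimulants (-0.68 ± 0.15; adjusted p = 0.0313). For Fa2h, 7 of the 8 lay below every saline array.

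The lipid enzymes Ugt8 (-0.84; adjusted p = 0.076) and Gal3st1 (-0.68; 0.084) were as far below saline but did not pass, nor did Adamts4 (-0.56; 0.069) or Sirt2 (-0.35; 0.13). Mog, Pllp, Mal and Cnp stood at -0.42 to -0.40, and Tspan2, Enpp2, Aspa, Elovl1 and Car2 at -0.34 to -0.28. Cldn11 (-0.18), Olig1 (-0.16), Omg (-0.12) and Cntn2 (-0.03) lay closer to 0. Above 0 were Mbp (0.36), Hapln2 (0.33), Mobp (0.23), Bcas1 (0.12) and Ermn (0.05), none of which passed. The other 2 Mbp probe sets stood at -0.12 and -0.13, and the second Cnp probe set at -0.74.

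Leaving out PFC saline Sample 1 or 3 left 0 of the 5 calls, and leaving out Sample 2 left 3. Without amphetamine 1.25 mg/kg Sample 1 or methamphetamine 1.25 mg/kg Sample 1, 2 passed, and without methamphetamine 1.25 mg/kg Sample 2, 8 passed. Gapdh 3' to 5' log2 ratios were 0.251 to 0.369 in saline and 0.325 to 0.80 with stimulants. The blood and choroid plexus genes tested stood at 0.59 and 0.88. Cortical neuron markers had a median difference of -0.04 over 8 and astrocyte markers of 0.01 over 8, with 0 passing in either list. Striatal neuron markers stood at a median of 0.23 over 7, 6 of them above saline, with 0 passing. The part of dissection and of RNA quality in the calls was not tested. When the striatal and cortical effects were set against each other in 1 fit, 0 members differed past the threshold (0.0% of all genes), and the median difference of the effects was -0.16, with 1 member at an unadjusted p under 0.05.

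In the second naive set, where amphetamine and methylphenidate at 5 mg/kg were set against saline Samples 4 and 5, members lay near saline. The median was -0.04 in the PFC, with 16 of 27 below 0, and -0.05 in the striatum, with 17 of 29 below 0. No member passed in limma's test in either region (0.0% of all genes were lower past the threshold in the PFC and 0.0% in the striatum), and 4 and 2 members had an unadjusted p under 0.05. With 2 saline arrays the comparison is the least precise of the series.

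Aspa had the smallest p of the members in both regions of this set. In the PFC it lay at 9.20 and 9.13 in saline and at 7.89 to 8.76 (median 8.33) in the 6 stimulant arrays (-0.77 ± 0.24; limma adjusted p = 0.810), and in the striatum at 9.78 and 10.01 in saline and at 8.85 to 9.47 (median 9.22) with stimulants (-0.72 ± 0.21; adjusted p = 0.797). The groups did not overlap in either region, although neither difference passed over all genes. In the PFC, Adamts4 lay at 9.41 and 9.22 in saline and at 8.67 to 8.99 with stimulants (-0.49), and Nfasc at 10.22 and 10.13 against 9.54 to 9.83 (-0.45). In the striatum, Omg, a surface protein that inhibits neurite growth, lay at 11.73 and 11.75 against 11.78 to 12.27 (0.25), and Sirt2 at 11.60 and 11.61 against 11.30 to 11.54 (-0.21). The blood marker gene tested was 9.22 to 10.54 on saline Samples 4 and 5 of both regions and 12.97 to 13.86 on the stimulant arrays of the set, a gap not seen among the other arrays. Its part in these values was not tested.

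The 2 sets of naive saline arrays differed from each other with no stimulant involved. Over the members the median of Samples 4 and 5 minus Samples 1 to 3 was -0.08 in the PFC and -0.11 in the striatum, and 2 and 1 members passed as lower, against 2.25% and 1.01% of all genes. Sirt2 was the gene common to both regions. In the PFC it lay at 12.02, 11.59 and 11.71 on Samples 1 to 3 and at 11.15 and 11.03 on Samples 4 and 5 (-0.68 ± 0.14; limma adjusted p = 0.00711). In the striatum it lay at 12.36, 12.16 and 12.38 against 11.60 and 11.61 (-0.70 ± 0.13; adjusted p = 0.00575). This gap between saline arrays is as wide as the striatal difference between stimulants and saline given above for Sirt2 (-0.65). Hapln2, a link protein of the matrix around nodes, lay in the PFC at 8.77, 8.54 and 8.10 against 7.27 and 7.22 (-1.22 ± 0.28; adjusted p = 0.0131) and stood at -0.87 in the striatum (adjusted p = 0.175). Ugt8 stood at -0.86 (adjusted p = 0.0722) and -0.77. These calls were lost when Sample 4 or 5 was left out, and without PFC Sample 1 only Sirt2 passed there. Actin 3' to 5' log2 ratios were 3.85 to 4.30 on PFC Samples 4 and 5 and 2.04 to 2.89 on Samples 1 to 3. The part of RNA quality in the difference was not tested.

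**Figure D3:**
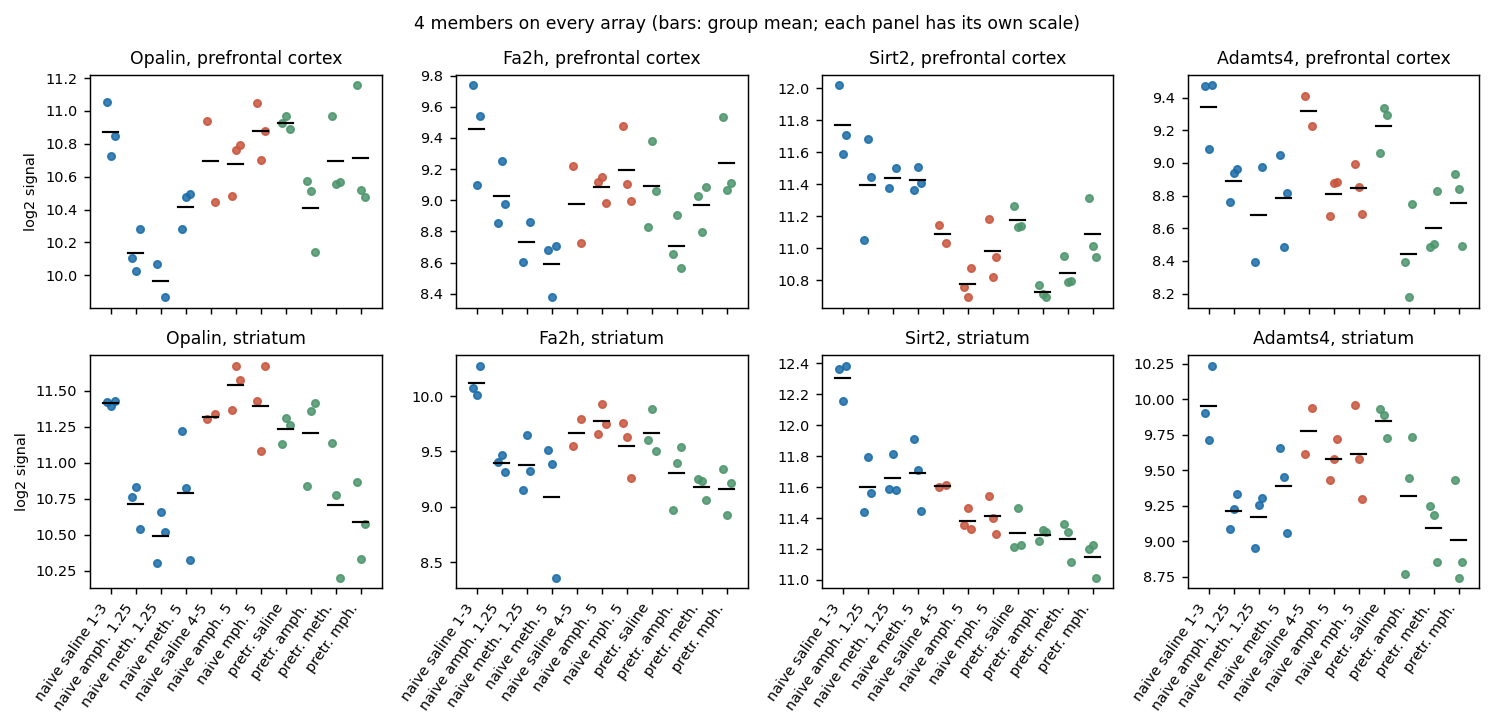
Log2 signal of Opalin, Fa2h, Sirt2 and Adamts4 on every array (points) with group means (bars), in the PFC (top) and the striatum (bottom), each panel with its own scale and the colours and abbreviations of the plot of mean signal. Saline Samples 1 to 3 are the highest naive group for Sirt2 (11.59 to 12.02 in the PFC and 12.16 to 12.38 in the striatum), while Adamts4 is lower with stimulants than with saline in the pretreated cohort too.

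In rats given the stimulant for 7 days before conditioning, myelin genes again tended to lie below saline, by a median of 0.24 in each region. In the PFC 23 of 27 members were below 0 and 0 passed (0.0117% of all genes were lower past the threshold), with 10 at an unadjusted p under 0.05 in limma's test. In the striatum 23 of 29 were below 0, 13 had an unadjusted p under 0.05 and 1 passed, against 0.41% of all genes. The medians of all genes were -0.01 in both regions.

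The gene that passed was Adamts4 in the striatum. It lay at 9.93, 9.89 and 9.73 in saline and at 8.74 to 9.74 (median 9.19) in the 9 stimulant arrays, so it fell by 38.8% (-0.71 ± 0.17; limma adjusted p = 0.0472), with 8 of 9 arrays below all saline arrays. In the PFC Adamts4 lay at 9.06, 9.34 and 9.29 in saline and at 8.18 to 8.93 (median 8.50) with stimulants, all 9 below all saline arrays, but did not pass (-0.63 ± 0.14; adjusted p = 0.0632). This metalloprotease gene was thus on the lower side in both cohorts and regions. It was picked by its p on the same arrays, and the share of all genes apart in this way was not counted. Ugt8 in the striatum lay at 9.93, 10.03 and 9.68 against 8.42 to 9.71 (median 8.92), with -0.90 ± 0.26 (adjusted p = 0.0847). Mag lay in the striatum at 10.82, 11.47 and 11.25 against 9.95 to 11.09 (median 10.49; -0.60; adjusted p = 0.137) and in the PFC at 10.56, 10.75 and 10.74 against 9.90 to 10.58 (median 10.03; -0.55; adjusted p = 0.121). Sirt2, which separated the naive groups, stood at -0.07 in the striatum here, and in the PFC lay at 11.27, 11.13 and 11.14 against 10.70 to 11.32 (median 10.80; -0.29; adjusted p = 0.532). Bcas1 was on the higher side in the striatum, at 13.04, 13.38 and 13.10 in saline and 13.14 to 13.85 (median 13.44) with stimulants (0.36; adjusted p = 0.144).

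The striatal call of Adamts4 was lost, with an adjusted p of 0.0505 to 0.254, when any of 20 arrays was left out, including each of the 3 pretreated saline arrays and each of the 5 naive saline arrays, which enter it only through the shared estimate of spread. The others were naive amphetamine 1.25 mg/kg Sample 3, amphetamine 5 mg/kg Samples 1 to 3, methamphetamine 1.25 mg/kg Sample 2, methamphetamine 5 mg/kg Sample 2 and methylphenidate 5 mg/kg Sample 2, and pretreated amphetamine Samples 1 and 2, methamphetamine Samples 2 and 3 and methylphenidate Sample 2. Without naive methamphetamine 1.25 mg/kg Sample 1, pretreated methamphetamine Sample 1 or pretreated methylphenidate Sample 3, 2 members passed. In the PFC, Adamts4 passed (0.0369 to 0.0393) without naive methamphetamine 1.25 mg/kg Sample 1 or 2, methamphetamine 5 mg/kg Sample 2 or pretreated amphetamine Sample 3. Cortical neuron markers in the striatum were 7.87 to 8.46 in saline and 8.51 to 9.78 with stimulants (median difference 0.85 over 4), and the 9 striatal neuron markers were all below saline (median -0.32). The 7 striatal markers tested in the PFC were also all below saline (median -0.47), and 0 passed in any of these lists. In the striatum, all 7 microglial markers (median 0.39) and all 8 astrocyte markers (median 0.18) were above saline, with 0 passing. The part of dissection and of other cell types was not tested.

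Taken singly, each stimulant group of the first naive set had most members below its saline arrays. With amphetamine at 1.25 mg/kg, the median was -0.33 in the PFC (24 of 27 below 0) and -0.52 in the striatum (26 of 29). The only call was Opalin in the PFC (-0.74 ± 0.16; limma adjusted p = 0.0378; 0.0352% of all genes lower) and Sirt2 in the striatum (-0.70; 0.00433; 0.258%). Methamphetamine at 1.25 mg/kg gave medians of -0.41 (22 of 27) and -0.56 (25 of 29). The striatal group includes the array of cortical profile, and without it the median was -0.41 (26 of 29 below 0) and 0 members passed. The same dose had 7 calls in the PFC, where 2.81% of all genes were lower past the threshold: Nfasc (-1.02; 0.00998), Opalin (-0.91), Mag (-0.90), Fa2h (-0.73), Gpr37 (-0.69), Adamts4 (-0.66) and Mal, a raft protein of compact myelin (-0.59; 0.0494). That PFC group holds 2 arrays, 1 of them (Sample 1) of high ribosomal signal. Sample 1 was the lower of the 2 for all 7 genes but Opalin, with Nfasc at 8.98 against 9.41. The 7 calls thus leaned on that array. Without Sample 1 a single array remains, the median was -0.29 (20 of 27 below 0) and Adamts4 stood at -0.37. Without Sample 2, which also leaves a single array, the median was -0.42 (21 of 27 below 0). In the striatum Sirt2 passed (-0.64; 0.0428; 0.105% of all genes). Methamphetamine at 5 mg/kg gave medians of -0.34 (21 of 27) and -0.41 (25 of 29), with 0 calls in the PFC (0.0117% of all genes, 14 members at an unadjusted p under 0.05) and Sirt2 (-0.61; 0.0167) and Fa2h (-1.03; 0.0288) in the striatum (0.0938%). Fa2h lay at 9.52, 9.39 and 8.36 there, and without Sample 3, the array of high ribosomal signal, it stood at -0.67 (adjusted p = 0.165). Without Sample 3, or without striatal saline Sample 1 or 3, 0 members passed in this comparison, so the call of Sirt2 was lost too. Without amphetamine 1.25 mg/kg Sample 1 the PFC median of that group was -0.19. Its call of Opalin was lost without any 1 of its 3 arrays and without PFC saline Sample 1 or 3, and held without saline Sample 2. Without PFC saline Sample 1 the median of methamphetamine 5 mg/kg was -0.22.

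In the second set, amphetamine at 5 mg/kg gave medians of -0.07 in the PFC (19 of 27 below 0) and -0.03 in the striatum (15 of 29). Methylphenidate at 5 mg/kg gave 0.05 (10 of 27) and -0.10 (19 of 29). None of the 4 comparisons had a member past the threshold in limma's test (0.0%, 0.0%, 0.0117% and 0.0% of all genes), with 5, 2, 4 and 1 members at an unadjusted p under 0.05. The PFC medians shifted with the saline array kept. That of amphetamine was -0.21 without Sample 5 and -0.002 without Sample 4. That of methylphenidate was 0.18 without Sample 4 and -0.07 without Sample 5.

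In the pretreated cohort, amphetamine had a median of -0.40 in the PFC (23 of 27 below 0) and -0.10 in the striatum (19 of 29), methamphetamine -0.20 (24 of 27) and -0.29 (22 of 29), and methylphenidate -0.06 (17 of 27) and -0.31 (25 of 29). These orders were not tested and shifted with single arrays. Without PFC methylphenidate Sample 1, an array of high ribosomal signal, the median for methylphenidate there was -0.20 (23 of 27 below 0). Without PFC methylphenidate Sample 3 it was 0.05 (9 of 27 below 0). In the striatum the median for methamphetamine was -0.16 without its Sample 3. That for methylphenidate was -0.46 without its Sample 1 and -0.25 without its Sample 2. That for amphetamine was -0.18 without saline Sample 1 and -0.19 without its own Sample 2. Without its own Sample 1 it was 0.03, with 11 of 29 below 0. The single call was Car2 in the striatum with methamphetamine. It lay at 12.73, 12.96 and 12.93 in saline and at 12.59, 11.85 and 11.86 with methamphetamine (-0.77 ± 0.16; limma adjusted p = 0.0272; 0.422% of all genes lower), and at 12.67 to 12.89 with amphetamine. Carbonic anhydrase was thus low on 2 of the 3 methamphetamine arrays and close to saline on the third. Sample 2, 1 of the low arrays, is of high ribosomal signal (14.22). The call was lost without any 1 of the 3 saline arrays and without methamphetamine Sample 2 or 3, and held without methamphetamine Sample 1. For the other 5 combinations, 0 members passed (0.0117%, 0.0% and 0.0117% of all genes for the 3 stimulants in the PFC, 0.0% for amphetamine and 0.0234% for methylphenidate in the striatum). The numbers at an unadjusted p under 0.05 were 16, 5 and 2 in the PFC, and 4 and 11 for amphetamine and methylphenidate in the striatum. The nearest were Adamts4 and Mag with amphetamine in the PFC (-0.79 and -0.74; 0.0677 and 0.0956) and Mal with methylphenidate in the striatum (-0.60; 0.0961).

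Counted together with the direct comparisons of groups given below, 8 calls were found in the PFC and 5 in the striatum. On all arrays none came from the direct comparisons. Without PFC methamphetamine 5 mg/kg Sample 2, 4 did. Without striatal pretreated methamphetamine Sample 1, Aspa and Car2 passed in direct comparisons. These counts shifted with single arrays. In the PFC they were 4 without naive saline Sample 1 or 3, 2 without methamphetamine 1.25 mg/kg Sample 1, 13 without its Sample 2, 17 without methamphetamine 5 mg/kg Sample 2 and 13 without pretreated methylphenidate Sample 1. In the striatum they were 1 without naive saline Sample 3, 2 without its Sample 1 and 3 without pretreated saline Sample 1 or 3. They were 12, 8 and 13 without methamphetamine 1.25 mg/kg Samples 1, 2 and 3, 10 and 9 without methamphetamine 5 mg/kg Samples 1 and 3, and 14 and 8 without pretreated methamphetamine Samples 1 and 3.

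Amphetamine and methamphetamine differ by a methyl group on the nitrogen, and methylphenidate is a piperidine ester. Direct comparisons of groups of the same set or cohort found no member that differed between stimulants or doses past the threshold on all arrays, with exceptions in 3 of the 10 comparisons when 1 array was left out, given below. Methamphetamine at 5 minus 1.25 mg/kg had a median of 0.05 in the PFC and 0.10 in the striatum (0.0234% and 0.0% of all genes passed in either direction). Without PFC methamphetamine 5 mg/kg Sample 2, an array of high ribosomal signal, 4 members passed in the PFC (Bcas1, Mbp, Mobp and Nfasc). The striatal median was 0.16 without methamphetamine 1.25 mg/kg Sample 2 and 0.27 without methamphetamine 5 mg/kg Sample 3. It was -0.004 without methamphetamine 1.25 mg/kg Sample 1, the array of cortical profile. Without methamphetamine 5 mg/kg Sample 1 it was -0.06. The nearest member was Opalin in the PFC, at 0.45 (95% confidence interval 0.09 to 0.82). Amphetamine minus methylphenidate, both conditioned at 5 mg/kg in naive rats, had medians of -0.18 and 0.02 (0.0% and 0.0%), with Cnp in the PFC nearest at -0.46 (-0.80 to -0.12). Without methylphenidate Sample 1 the PFC median was -0.08. The infused dose of methylphenidate was not matched to that of the amphetamines.

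In pretreated rats, amphetamine minus methamphetamine had medians of -0.17 in the PFC and 0.14 in the striatum (0.0% and 0.0%), and Car2 in the striatum stood at 0.71 (0.37 to 1.05; limma adjusted p = 0.486). Without methamphetamine Sample 1 the striatal median was 0.22 and 2 members passed, Aspa and Car2. Without amphetamine Sample 1 the median was 0.34 with 0 passing, and without Sample 3 of either group it was 0.06. Amphetamine minus methylphenidate had a median of -0.31 in the PFC, with all 27 members below 0 and 11 at an unadjusted p under 0.05, and of 0.22 in the striatum (0.0% and 0.0%). The PFC value rested on methylphenidate Sample 1, the array of high ribosomal signal: without it the median was -0.13, with 22 of 27 below 0 and 3 at an unadjusted p under 0.05. The striatal median was 0.38 without amphetamine Sample 1 and 0.14 without amphetamine Sample 2 or methylphenidate Sample 2. Enpp2 in the PFC was nearest, at -0.47 ± 0.13 (-0.74 to -0.20; adjusted p = 0.473). Methamphetamine minus methylphenidate had medians of -0.12 in the PFC and 0.05 in the striatum (0.0% and 0.0%). The PFC median was -0.29 without methylphenidate Sample 3. Without methylphenidate Sample 1 it was 0.002, with 13 of 27 below 0 and 0 at an unadjusted p under 0.05. Aspa in the striatum stood at 0.85 (0.41 to 1.29, limma adjusted p = 0.273). Without methamphetamine Sample 1, Aspa and Car2 passed here too. Over all members the intervals of these 3 pairs reached from -1.06 to 0.67 in the PFC and from -1.04 to 1.29 in the striatum, so differences of the size seen against saline remain possible.

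Effects against saline were also compared between doses, cohorts and regions, each effect taken within its own set. The effect of amphetamine at 5 minus that at 1.25 mg/kg, which lies across the sets, had a median of 0.09 in the PFC and 0.47 in the striatum (0.305% and 0.0% of all genes passed), and 0 members passed. In the PFC Ugt8 was nearest (1.31, interval 0.51 to 2.10; limma adjusted p = 0.260). In the striatum 26 of 29 members had the higher value at 5 mg/kg and 12 had an unadjusted p under 0.05, with Car2 nearest (0.80, interval 0.29 to 1.30; limma adjusted p = 0.461). The set and the dose cannot be told apart here. The pretreated minus the naive effect at 5 mg/kg had medians of -0.25, 0.10 and -0.06 for amphetamine, methamphetamine and methylphenidate in the PFC (0.0117%, 0.0% and 0.0352% of all genes) and of -0.09, 0.11 and -0.36 in the striatum (0.0117%, 0.0% and 0.0117%). No member passed in any of these 6, and the largest numbers at an unadjusted p under 0.05 were 4 and 5. Nearest to the threshold was Sirt2 for methamphetamine in the striatum (0.57, interval 0.25 to 0.90; adjusted p = 0.13). The striatal minus the cortical effect had a median of 0.05 in the second naive set and of -0.04 in the pretreated cohort, with 0 members past the threshold (0.0% and 0.0%) and 0 at an unadjusted p under 0.05.

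Between regions, saline rats had more signal of most myelin genes in the striatum than in the PFC. The median difference was 0.54 in naive saline Samples 1 to 3, where 23 of 29 members passed as higher, 0.52 in Samples 4 and 5, where 12 passed, and 0.36 in the pretreated cohort, where 7 passed. Of all genes, 14.7%, 10.8% and 13.8% passed as higher, with medians of 0.03, 0.03 and 0.00, and 0 members passed as lower. Genes past the threshold in all 3 were Mal, Tspan2, Ugt8, Fa2h and Elovl1. Gpr37 and Adamts4 also passed in the pretreated cohort. Neuronal markers went the other way: the 7 general neuron markers tested were all lower in the striatum in each saline group, with medians of -0.53, -0.47 and -0.37, of which 6, 4 and 4 passed. Their mean was 11.99 to 12.13 in the PFC and 11.41 to 11.58 in the striatum on naive Samples 1 to 3. Gapdh 3' to 5' log2 ratios there were 0.251 to 0.369 in the PFC and 0.528 to 0.574 in the striatum, with no overlap. These log2 ratios overlapped on Samples 4 and 5 and in the pretreated cohort (0.695 to 0.882 against 0.744 to 1.04). The part of RNA quality and of neuronal content in the region differences was not tested.

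Ugt8 had the largest difference in each saline group. It lay in the PFC at 9.39, 8.95 and 9.02 and in the striatum at 9.87, 9.99 and 10.62 on naive Samples 1 to 3 (1.04 ± 0.30; limma adjusted p = 0.0068). On Samples 4 and 5 it lay at 8.34 and 8.18 against 9.08 and 9.70 (1.13; 0.023), and in the pretreated cohort at 8.20, 9.22 and 9.06 against 9.93, 10.03 and 9.68 (1.05; 0.0062). The regions did not overlap for this lipid enzyme in any of the 3. It was picked for its difference on the same arrays, and the share of all genes apart in this way was not counted. Ermn, at 10.75, 10.85 and 10.77 against 11.70, 11.58 and 11.89 on Samples 1 to 3 (0.93; 0.0003), and Nkx6-2, at 7.49, 7.14 and 7.23 against 8.37, 8.10 and 8.23 (0.95; 0.0073), followed. In Samples 4 and 5, Mog, at 11.78 and 11.31 against 12.39 and 12.39 (0.85; 0.0026), and Bcas1, at 12.60 and 12.70 against 13.51 and 13.44 (0.83; 0.0027), came next, and in the pretreated cohort Adamts4 (0.62; 0.014) and Tspan2 (0.60; 0.019).

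Omg, Cntn2, Nfasc, Mbp, Gal3st1 and Hapln2 did not pass between regions in any saline group. Omg and Cntn2, which neurons also make, stood at -0.13 and -0.19 in Samples 1 to 3, at -0.17 and 0.00 in Samples 4 and 5 and at -0.10 and -0.03 in the pretreated cohort. Nfasc, whose neuronal form lies at the node, stood at 0.06, -0.23 and 0.23, and Pllp at 0.11 in the pretreated cohort. Without PFC naive saline Sample 2 or 3 or striatal Sample 3, the count of 23 became 11, 14 and 8. Without PFC Sample 5 or striatal Sample 4 or 5, the count of 12 became 2, 5 and 5, and leaving out Sample 4 or 5 leaves 1 array that is assumed to vary like the other groups. Without PFC pretreated saline Sample 1 the count of 7 became 0, and without striatal Sample 2 it became 2.

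**Figure D4:**
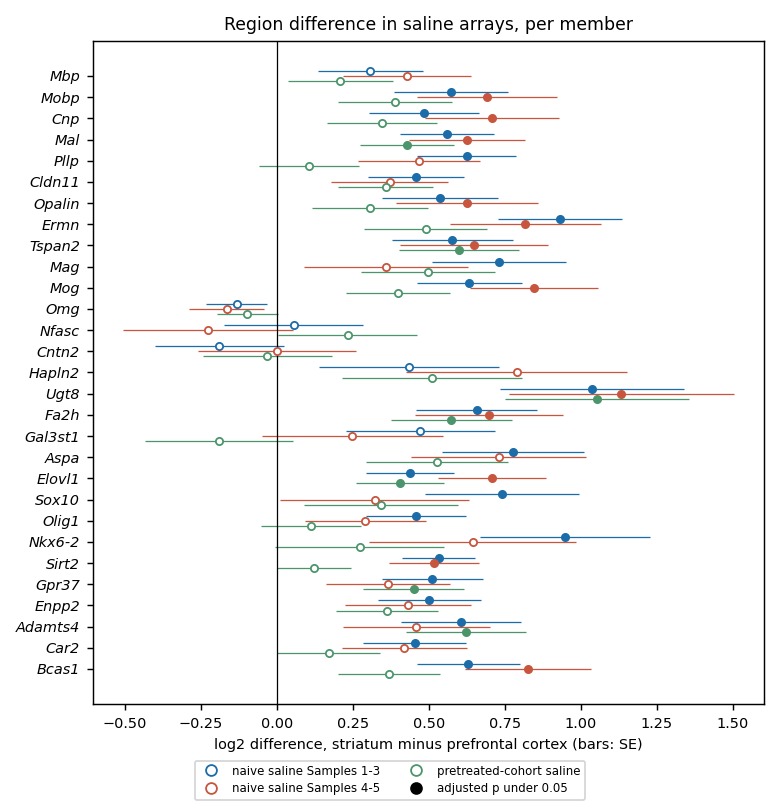
Difference in log2 signal between striatum and PFC in saline arrays for each of the 29 genes, with bars for the SE, for naive Samples 1 to 3 (blue), naive Samples 4 and 5 (red) and the pretreated cohort (green). Filled points passed at an adjusted p under 0.05. Ugt8 lies farthest to the right in all 3 (1.04, 1.13 and 1.05), and Omg, Nfasc and Cntn2 lie around 0.

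A list of other oligodendrocyte genes, chosen like the members with earlier results of these data known, was set beside them. In the first naive set it had a median of -0.19 in the PFC, with 16 of 21 below 0, and of -0.32 in the striatum, with 20 of 24 below 0. Cers2, a ceramide synthase for very long fatty acids, passed as lower in the PFC (-0.43; limma adjusted p = 0.0428). The tetraspanin gene Cd9 (-0.59; 0.00854) and the lysophosphatidic acid receptor gene Lpar1 (-0.56; 0.0404) passed in the striatum. In the second set the medians were 0.04 and 0.11, and in the pretreated cohort -0.15 and -0.20, with 0 passing in each. Between regions, 13, 7 and 6 of the 24 passed as higher in the striatum in the 3 saline groups. Genes of oligodendrocyte precursors stood at a median of -0.12 in the PFC and -0.19 in the striatum of the first naive set, with 4 of 6 and 6 of 6 below 0 and 0 passing.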

How the data were processed

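Arrays of rat PFC and striatum were grouped by their labels. The deposited values are linear intensity per probe set, made by the authors with MAS5 per the submitters' processing notes (version not given in the sources used here), which gives 1 signal per probe set. The trimmed mean (2% off each end) was 500.1 to 500.2 on every array. Intensities under 1 (18232 values) were set to 1 and log2 was taken. GEO's platform annotation gave 1 symbol to 20832 of 31099 probe sets, several to 436 and none to 9831. The number of arrays limits the precision. limma 3.58.1 in R 4.3.3 (lmFit, contrasts.fit, eBayes with an intensity trend) was fitted over all 8531 genes and all arrays of a region (20 and 21 residual degrees of freedom; 41 over both regions), with Benjamini-Hochberg adjustment over all genes and a threshold of 0.05. Means over several stimulant groups weigh groups equally.

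The members and lists were chosen with earlier results of these data known. All members are named. Values on every array are given for members that passed in a mean comparison, or for those of smallest p up to 3. Between regions, the 3 largest and 3 smallest differences are named, and of other oligodendrocyte genes those that passed, up to 6. Marker lists covered oligodendrocyte precursors, striatal, cortical and other neurons, astrocytes, microglia, endothelium, blood and choroid plexus. Alternatives were quantile normalization, log2 of signal plus a constant, no filter, the mean of all probe sets, no intensity trend, arrays of 1 cohort, a replicate block, the 5 naive saline arrays as 1 group with and without a set term, and leaving out arrays. The scripts were tested on simulated data.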

Additional observations from a re-analysis of the deposited data

Results flagged for a closer look

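Tested members, 27 in the PFC and 29 in the striatum, and the mean of the members were checked for a lone array. The 5 naive saline arrays of each region formed 1 group here, with Samples 1 to 3 and Samples 4 and 5 together. Chance alone marks about 1 in 20 such groups. Cnp was marked in the PFC, where Sample 1 stood at 13.66 and the other 4 at 13.04 to 13.19, a gap of 0.752 of the range against a critical value of 0.71. Enpp2 was marked in the striatum, where Sample 3 stood at 12.42 and the others at 12.14 to 12.16, a gap of 0.909 of the range.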

How the results depend on the processing

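Counts of members past the threshold moved with the processing, while every median over the members kept within the spread of the arrays. Counts for single stimulants, here and in the next paragraph, also take in the direct comparisons between stimulants and doses. Settings that moved a count were these. The mean of all probe sets of a gene gave 2 instead of 5 for the PFC of the first naive set and 0 instead of 1 for the pretreated striatum. Arrays of 1 cohort gave 2 for the PFC of the first naive set, 2 instead of 5 for single stimulants in the striatum and 4 instead of 7 for the regions in pretreated saline. No filter gave 5 instead of 8 for single stimulants in the PFC, and 0 for the pretreated striatum, as did quantile normalization and no intensity trend. Quantile normalization gave 12 for the regions in pretreated saline. The 5 naive saline arrays as 1 group gave 2 instead of 0 for the striatum of the second set, 0 for the pretreated striatum, and 4 and 3 instead of 0 for differences of effects in the PFC and striatum. Without the array of cortical profile, 2 passed for the pretreated striatum and 12 for single stimulants there. Leaving out arrays of high ribosomal signal (chosen after seeing the data) gave 2 for the PFC of the first naive set, 2 instead of 0 for the pretreated PFC, 10 for single stimulants in the striatum and 13 for the regions in pretreated saline. Leaving out PFC amphetamine 1.25 mg/kg Samples 1 and 2, with raised striatal markers (also chosen after seeing the data), gave 2 for the PFC of the first naive set. 2 small differences changed sign: Nfasc between regions in Samples 1 to 3 (-0.026 with the mean of all probe sets) and Cntn2 between regions in Samples 4 and 5 (-0.054 with quantile normalization). The cause was not tested.

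Leaving out single arrays gave 0 to 8 members for the PFC and 1 to 12 for the striatum of the first naive set, 0 to 1 and 0 to 2 for the pretreated cohort, 0 to 3 and 0 to 1 between naive saline sets, 2 to 17 and 1 to 14 for single stimulants, and 8 to 23, 2 to 13 and 0 to 8 between regions. Cntn2 ranged from -0.043 to 0.044 (Samples 4 and 5) and from -0.112 to 0.062 (pretreated), and Nfasc from -0.064 to 0.175 (Samples 1 to 3) and from -0.479 to 0.027 (Samples 4 and 5). Of the named genes' values, 2022 of these kept direction and side of the threshold, 75 lost significance, 8 gained it and 7 changed sign; under the other settings these were 469, 22, 7 and 2. Same-numbered arrays did not deviate together in every pair (correlations between regions from -0.569 to 0.423), so the numbers were not taken as pairs, although the data hint at some sharing: between regions 22 of 31 same-numbered correlations were above 0.1 (median 0.173) against 15 of 72 others (-0.0657), and in the pretreated PFC 12 of 18 (0.194) against 3 of 36 (-0.0702). A fit with the replicate block gave 5 members in the PFC and 8 in the striatum of the first naive set.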

Other observations

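Deviations from group means were used to describe how the members vary together between arrays of the same group. The median correlation over pairs of members was 0.38 in the PFC (31 arrays, 88.6% of pairs above 0) and 0.43 in the striatum (32 arrays, 87.2%; 0.44 without the array of cortical profile). Arrays share scaling and dissection, so this is a description. Cldn11 followed the mean of the other members most closely (Pearson r 0.89 in the PFC and 0.94 in the striatum), with Pllp, Car2, Mog and Cnp next in the PFC and Cnp, Fa2h and Gpr37 next in the striatum. Cntn2 did not follow it in the PFC (-0.02), nor did Mbp (0.01) and Aspa (0.03) in the striatum.

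Outside the list, the genes whose deviations were most like the members' mean were Septin4, Cd9, Cd82, Adpgk, Gab1, Tmed10, Itprid2 and Evi2a in the PFC (Septin4 r 0.89) and Plekhh1, Fah, Slc44a1, Pacs2, Sema4d, Tmcc3, Gltp and Septin4 in the striatum (Plekhh1 r 0.93). Septin4 was among the first 8 in both regions.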
